A study of Mus musculus with 4 samples.

Results

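Mature luminal (ML) cells of the mouse mammary gland in which the progesterone receptor gene Pgr was detected are described here, and are compared with ML cells of the same libraries in which it was not. The cells were chosen by their counts. An ML cell had a count for at least 3 of the 6 genes Stc2, Upk3a, Plac8, Tspan1, Prlr and Cited1, for at most 1 of the 5 luminal progenitor (LP) genes Cd14, Lalba, Plb1, Atp6v1b1 and Aldh1a3, and for at most 2 of the 7 basal genes Krt5, Krt17, Acta2, Myl9, Tagln, Mylk and Cnn1. A Pgr-positive cell was an ML cell with at least 1 Pgr count. There were 528 such cells among 3409 ML cells and 10596 cell barcodes. Pgr lies on chromosome 9 from 8899833 to 8968611 (GRCm38, plus strand).

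All glands came from untreated female FVB/NJ mice, an inbred strain. The puberty library was from mice of 5 weeks, given in the study's supplement as 6 mice, and the estrus and diestrus libraries were from adults of 10 weeks in those phases of the ovarian cycle, with the glands of 2 mice pooled for each phase. Cells were sorted as Lin-CD24+ total epithelium, a gate that removes immune, endothelial and red blood cells, and were captured on the 10x Genomics Chromium platform, which counts molecules at the 3' end of transcripts. Each stage was 1 library, so the libraries serve as replicates for a comparison made within each of them, and no test was made between stages. The libraries held 5428, 2729 and 2439 barcodes, with medians of 4103, 3236 and 3974 counts per cell in puberty, estrus and diestrus. Any 2 of these libraries shared at most 24 barcodes.

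The progesterone receptor is a nuclear receptor that binds its hormone and then regulates transcription. In the mammary epithelium it is found in a subset of luminal cells, usually together with the estrogen receptor, which induces its expression. These hormone-sensing cells are known to pass the signal to their neighbors through secreted ligands such as RANKL, encoded by Tnfsf11, and WNT4, and progesterone is at its highest in diestrus.

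The puberty library held 356 Pgr-positive cells among its 2031 ML cells, a share of 17.5% with a 95% exact Clopper-Pearson interval of 15.9 to 19.3%. The estrus library held 76 among 748, which is 10.2% (8.09 to 12.6). The diestrus library held 96 among 630, which is 15.2% (12.5 to 18.3). The intervals cover counting error only. Each cell was then thinned to 2000 counts, with shallower cells left out. This lowered the shares to 7.72% (6.57 to 9.01) for puberty, 4.62% (3.18 to 6.47) for estrus and 6.95% (5.03 to 9.31) for diestrus, and the libraries kept their order. The intervals of estrus and puberty did not overlap at either depth, whereas that of diestrus overlapped the puberty interval at both. After thinning, the estrus and puberty limits were close, at 6.47 and 6.57%. A second deposited set of puberty counts, with a median of 3169.5 counts per ML cell, gave 13.9% (12.4 to 15.4) without thinning. That interval overlapped the estrus interval. The stages had no replicate libraries, so these overlaps describe the libraries and do not test a difference between stages.

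Free RNA in droplets can give a count to a cell that does not make the transcript, so the same share was taken in cells that should largely lack Pgr. Among cells with at least 3 of the 5 LP genes, at most 1 ML gene and at most 2 basal genes, a Pgr count was found in 4 of 1055 (puberty), 0 of 323 (estrus) and 1 of 283 (diestrus). The 0 in estrus allows a share of up to 0.929% by the rule of 3 counts of the total, and of up to 1.14% by the exact interval. Among cells with at least 4 of the 7 basal genes, at most 1 ML and at most 1 LP gene, the puberty share was 1.42%, the estrus share 1.01% and the diestrus share 1.37%. Depth also differed, with medians of 4772, 4207 and 4458 counts in the ML cells of the 3 libraries against 2885, 2549 and 3416 in the basal-rule cells and 4147, 3664 and 4414 in the LP-rule cells, and after thinning the basal-rule shares were 0.866%, 0.642% and 0.836%. The ML shares stood above these at both depths.

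**Figure D1:**
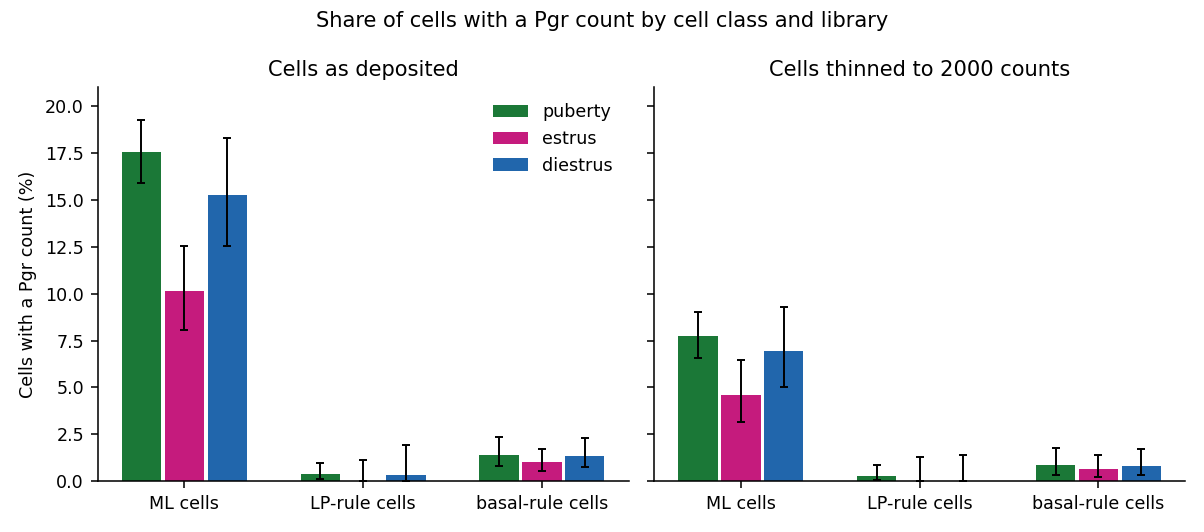
Share of cells with a Pgr count (%, vertical axis) in ML, LP-rule and basal-rule cells of each library, as deposited (left) and after thinning to 2000 counts (right); bars are shares and whiskers 95% exact intervals. The ML shares of 17.5%, 10.2% and 15.2% stand above those of the LP-rule and basal-rule cells, of which the highest was 1.42%.

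The Pgr signal was sparse. In puberty 67.4% of the Pgr-positive cells had exactly 1 Pgr count, in estrus 86.8% and in diestrus 88.5%, and the highest count in a cell was 5 in puberty and 3 in each adult library. Together the Pgr-positive cells held 522 Pgr counts in puberty, 87 in estrus and 110 in diestrus, which were 81.1%, 74.4% and 67.9% of all Pgr counts of those libraries. A cell without a Pgr count is therefore not shown to lack the receptor. Cells with at least 2 Pgr counts made up 5.71% of the puberty ML cells, 1.34% of those of estrus and 1.75% of those of diestrus.

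The share of Pgr-positive cells was also taken by the number of ML genes in a cell. At the edge of the rule, with the LP and basal limits kept, Pgr was counted in 13.0% of the puberty cells with exactly 3 ML genes (57 of 438) and in 8.33% of those with exactly 2 (10 of 120), which the rule leaves out. In estrus the shares were 4.79% (7 of 146) and 6.90% (2 of 29), and in diestrus 13.7% (17 of 124) and 11.1% (5 of 45). Outside the ML class, 88, 29 and 49 cells of puberty, estrus and diestrus held a Pgr count, and 44, 9 and 22 of these had at least 3 ML genes but also more than 1 LP gene. Whether these were doublets was not tested.

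Pgr-positive cells were deeper than the other ML cells in puberty (median 5688 against 4620 counts) and estrus (4880 against 4129) and alike in diestrus (4458 against 4459.5). Each was therefore matched within its library to 2 ML cells without a Pgr count and with a total count within 0.05 on the log10 scale. This gave 711, 152 and 192 partners, whose median totals were 5683, 4878 and 4459.5 counts. The Pgr-positive cells had slightly more genes detected than their partners, with medians of 1673.5 against 1638 in puberty, 1879 against 1850 in estrus and 1674.5 against 1649.5 in diestrus. The share of counts from ribosomal protein genes was lower in them, at a median of 24.9% against 25.3%, 17.9% against 18.9% and 23.8% against 27.2%. Matching on genes detected in place of total counts gave 12 higher and 6 lower calls, of which 10 were among the 22 genes called below. The calls lost in that fit are listed here only for the 17 called genes named by rule. They were those of Ido1, Man1a, Ang5, Lpar6, Msn, Atad1, Paf1, Mgst1, Lcn2 and Slpi (edgeR adjusted p from 0.0774 to 0.995). The part of the ribosomal share in the results was not tested.

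Counts were summed for each class in each library and compared by edgeR's quasi-likelihood test with the library as a block. Of 6537 genes tested, 11 were higher in Pgr-positive cells (0.168%) and 11 were lower (0.168%) at an adjusted p under 0.05. At an unadjusted p under 0.05, 180 genes were higher and 177 were lower, which is 5.46% of those tested. The direction was shared by all 3 libraries for 18 of the 22 genes. The fit drew the spread of each gene fully onto a trend common to all genes, so a few cells with very many counts can give a small p, and the highest cells are given below. The median log2 fold change over all genes was -0.0047. The calls depended on the fit. DESeq2 on the same sums called 1 gene, Ido1, with 36 genes at an unadjusted p under 0.05, and edgeR without the library block called 0 genes, with 40 at an unadjusted p under 0.05. Ido1 was also past the threshold in edgeR with any 1 of the 3 libraries left out, whereas Ly6d missed it in each of these fits (adjusted p from 0.0665 to 0.237).

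Esr1, the estrogen receptor gene, was detected in similar shares of both classes. It was found in 10.4% of Pgr-positive cells and 10.8% of partners in puberty, in 11.8% and 11.2% in estrus, and in 11.5% and 11.5% in diestrus. Its log2 fold change was 0.03 (SE 0.25, edgeR adjusted p = 0.998). The 95% interval ran from -0.46 to 0.52, and a difference inside this range is not excluded.

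Only 22 of all 6537 genes tested passed, so the lack of a call in a short list says little about that list. Of 16 hormone and growth factor receptor genes, 5 passed the filter on low counts and none passed the test. Their median log2 fold change was 0.11, and 1 had an unadjusted p under 0.05. This was Thra, a thyroid hormone receptor gene, at 38.5 CPM, the counts scaled to a common library size, against 29.4 in puberty, 53.2 against 29.9 in estrus and 34.2 against 28.9 in diestrus, with a log2 fold change of 0.46 (SE 0.21, edgeR adjusted p = 0.819). CPM values here are scaled by the trimmed mean of M values (TMM). Erbb3, which encodes a partner of the HER2 receptor, had a log2 fold change of 0.17 (SE 0.21). Esr2 and Erbb4 had no count in either class.

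Among 11 progesterone-responsive genes, 6 were tested, none passed, 1 had an unadjusted p under 0.05 and the median log2 fold change was 0.05. Wnt4 was detected in 15.7% of Pgr-positive cells against 15.5% of partners in puberty, 26.3% against 21.1% in estrus and 27.1% against 26.6% in diestrus, with a log2 fold change of 0.07 (SE 0.18). Areg encodes amphiregulin, a ligand of the epidermal growth factor receptor that is induced by estrogen, and its level differed more between libraries than between classes. It stood at 3802 CPM in the Pgr-positive cells and 3441 in the partners in puberty, at 639 and 755 in estrus, and at 1497 and 1947 in diestrus. The log2 fold change was -0.13 (SE 0.07, edgeR adjusted p = 0.903). In diestrus, Areg was detected in 57.3% of Pgr-positive cells (46.8 to 67.3) and 69.8% of partners (62.8 to 76.2). Ccnd1, encoding cyclin D1, had the gene list's lowest value at -0.38 (SE 0.12, edgeR adjusted p = 0.233), with 160 CPM against 209 in puberty, 80.9 against 149 in estrus and 123 against 120 in diestrus.

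Tnfsf11 and Calca, the calcitonin gene, were detected mainly in diestrus and had too few counts for the test. Tnfsf11 was found in 18 of 96 Pgr-positive cells in diestrus (18.8%, 11.5 to 28.0) and in 18.8% of partners (13.5 to 25.0). In puberty it was found in 1 of 356 Pgr-positive cells (0.281%) and in 11 of 711 partners (1.55%), with overlapping intervals. Pgr was counted in 1 of 25 puberty ML cells with Tnfsf11 (4.0%, 0.101 to 20.4) and in 17.7% of those without (16.1 to 19.4). In estrus Tnfsf11 was found in 0 of 76 Pgr-positive cells, where 0 allows a share of up to 3.95% by the same rule of 3 counts. Calca was found in 14 of 96 Pgr-positive cells in diestrus (14.6%, 8.21 to 23.3) and in 28.1% of partners (21.9 to 35.1), and in no Pgr-positive cell or partner of puberty or estrus. The intervals for Calca overlapped, and with 1 diestrus library the difference has no replicate. Within the diestrus Pgr-positive cells, 11 held both transcripts and 21 held at least 1 of them. Of the 534 diestrus ML cells without a Pgr count, 100 held Tnfsf11, 125 held Calca and 54 held both.

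**Figure D2:**
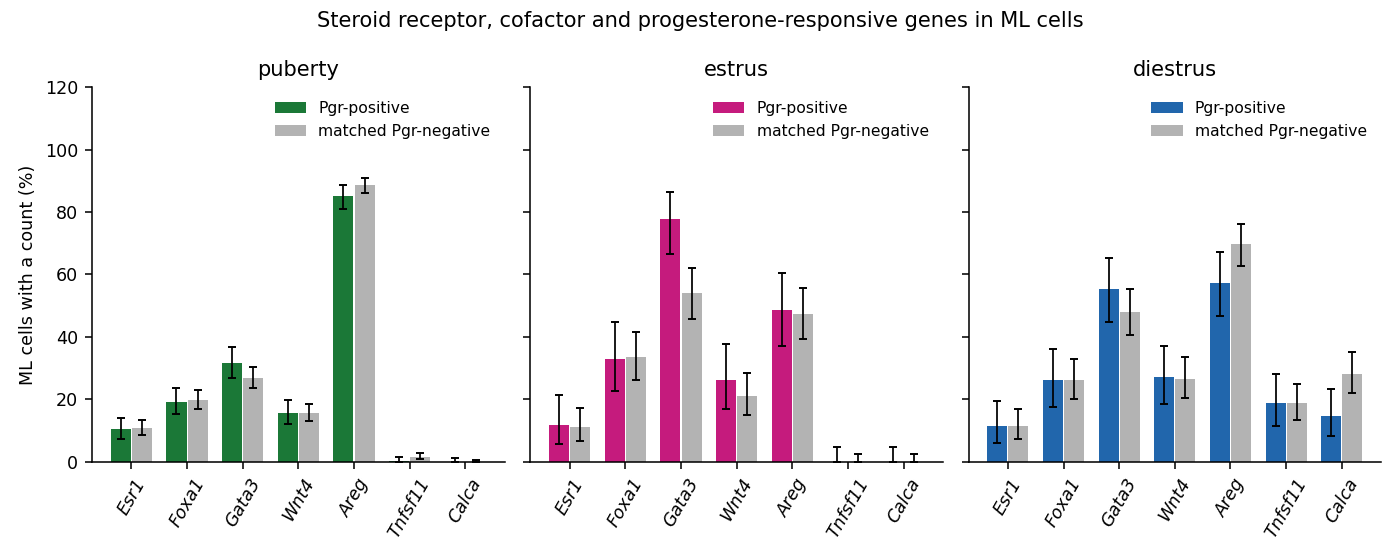
Share of ML cells with a count (%, vertical axis) for 7 genes in Pgr-positive cells (colored bars) and depth-matched cells without a Pgr count (gray bars) of each library; whiskers are 95% exact intervals. Esr1, Foxa1 and Wnt4 stand at like heights in both classes, Gata3 is at 77.6% against 53.9% in estrus, and Tnfsf11 and Calca are seen mainly in diestrus.

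Of 11 genes known to respond to estrogen, 7 were tested and none passed. None had an unadjusted p under 0.05 and the median log2 fold change was 0.04. Krt19, a luminal keratin gene, was in every Pgr-positive cell, with a log2 fold change of 0.04 (SE 0.06), and Ctsd, the cathepsin D gene, had one of -0.08 (SE 0.08). Greb1, Pdzk1 and Tff3, which are classical estrogen targets in human breast cells, had no count in either class. Of 14 genes for steroid receptor chaperones and coregulators, 9 were tested and none passed, none at an unadjusted p under 0.05, with a median of -0.05. The chaperone genes Hsp90ab1 and Hsp90aa1, whose products hold steroid receptors ready for hormone, had log2 fold changes of -0.06 (SE 0.06) and 0.07 (SE 0.08).

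Of 16 luminal transcription factor genes, 15 were tested and none passed, with 1 higher and 1 lower at an unadjusted p under 0.05 and a median log2 fold change of 0.06. The higher gene was Gata3, which encodes a factor needed for luminal differentiation. It was detected in 31.7% of Pgr-positive cells and 26.9% of partners in puberty, in 77.6% (66.6 to 86.4) and 53.9% (45.7 to 62.1) in estrus, and in 55.2% and 47.9% in diestrus. The share was higher in all 3 libraries, by a mean of 12.0 points ± 10.2 (SD, n = 3; exact sign-flip permutation p = 0.25, the smallest that 3 libraries allow). The log2 fold change was 0.31 (SE 0.12, edgeR adjusted p = 0.56), which did not pass, and it was -0.21 in the fit of cells with at least 2 Pgr counts. Read the other way, Pgr was counted in 13.3% of the estrus ML cells with a Gata3 count and in 5.59% of those without, whose median totals were 4553.5 and 3828.5 counts. The shares were 19.9% and 16.6% in puberty, and 16.3% and 14.1% in diestrus. Foxa1, encoding a pioneer factor that opens chromatin for the estrogen receptor, was detected in 19.1% against 19.8% of cells in puberty, 32.9% against 33.6% in estrus and the same share in diestrus (25 of 96 and 50 of 192 cells), with a log2 fold change of 0.13 (SE 0.16). Sox4 was at -0.05 (SE 0.10).

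Lineage genes that the rule did not use were also compared between the classes. Both classes had passed the same ML rule, so these fold changes do not test the ML label. Levels set beside those of LP-rule cells bear on it, but among the mature luminal genes they are given only for Ptn. Of the LP genes only Trf has its level in LP-rule cells given. The lists as a whole are not checked in this way. All 12 further mature luminal genes were tested, of which 8 lay above 0, against 48.9% of all genes tested. Their median was 0.16 against -0.0047 over all genes tested. Ly6d, encoding a small surface protein of the Ly6 family, was the one that passed, and 6 had an unadjusted p under 0.05, all of them higher. Ly6d stood at 4493 CPM against 3733 in puberty, 4221 against 3688 in estrus and 3672 against 2622 in diestrus, a log2 fold change of 0.31 (SE 0.06, edgeR adjusted p = 0.000315). Nearly the same share of cells held it in puberty (91.9% against 92.1%). Ly6d passed in 11 of 18 alternatives, but with each cell's count limited to 5 its value was 0.05 (edgeR adjusted p = 0.976). The highest genes of the list, Ptn, a secreted growth factor gene, and Krt18, a luminal keratin gene, had log2 fold changes of 0.12 (SE 0.06, edgeR adjusted p = 0.827) and -0.01 (SE 0.06). In the Pgr-positive cells Ptn stood at 8498, 10580 and 11170 CPM in the 3 libraries, while the LP-rule cells had between 50.4 and 89.2 on a scale without TMM.

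Of 10 LP genes outside the rule, 8 were tested and 6 of them lay below 0, against 3340 of all 6537 genes tested. The median log2 fold change of these LP genes was -0.29. One was lower past the threshold and 2 had an unadjusted p under 0.05, both lower. The one past the threshold was Lcn2, encoding the iron-binding protein lipocalin 2, at 42.9 CPM against 77.3 in puberty and 29.8 against 88.8 in estrus, but 68.4 against 46.4 in diestrus, with a log2 fold change of -0.67 (SE 0.17, edgeR adjusted p = 0.0292). Lcn2 passed in 4 of 17 alternatives. With each cell's count limited to 5 its value was -0.29 (edgeR adjusted p = 0.955). It passed without diestrus (-1.01, edgeR adjusted p = 0.0022) but not without puberty or estrus (edgeR adjusted p = 0.977 and 0.742). Trf, the transferrin gene, was at -0.47 (SE 0.25) and Mfge8, a milk fat globule protein gene, at -0.33 (SE 0.13, edgeR adjusted p = 0.56). Mfge8 was detected in 32.3% of Pgr-positive cells and 33.2% of partners in puberty. The shares were 27.6% and 30.9% in estrus, and 27.1% and 32.3% in diestrus. Trf was abundant in LP-rule cells, at 11762 to 26462 CPM on a scale without TMM. Of 10 further basal genes 2 had enough counts for the test, Krt14 at 0.38 (SE 0.35) and Tpm2 at -0.13 (SE 0.28).

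Of 13 markers of the cells that the sort should remove, 11 were at or near 0 and 2, Dcn and Hba-a1, were not. Ptprc, Cdh5, Col1a1 and Hbb-bs had no count in either class, and Lyz2, Tyrobp and Fabp4 had none in a Pgr-positive cell. Cd74, Cd52, Pecam1 and Col3a1 were found in at most 2.63% of the Pgr-positive cells of a library. Dcn and Hba-a1 had enough counts for the test. Dcn, encoding the matrix proteoglycan decorin, was detected in 17.4%, 35.5% and 35.4% of Pgr-positive cells and in 15.9%, 27.6% and 38.5% of partners in puberty, estrus and diestrus, with a log2 fold change of 0.32 (SE 0.10, edgeR adjusted p = 0.328). Hba-a1, an alpha globin gene, was detected in 16.3%, 13.2% and 38.5% of Pgr-positive cells and in 14.3%, 7.24% and 45.8% of partners.

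The gene most clearly higher in Pgr-positive cells was Ido1, which encodes indoleamine 2,3-dioxygenase, an enzyme of tryptophan breakdown (chromosome 8 from 24584136 to 24597009). It stood at 274 CPM against 126 in puberty, 168 against 58.8 in estrus and 86.5 against 20.6 in diestrus, so the classes were ordered alike in each library. The log2 fold change was 1.32 (SE 0.13, edgeR adjusted p = 1.03e-20). The share of cells with a count was 21.6% against 16.9% in puberty, 17.1% against 13.2% in estrus and 13.5% against 5.73% in diestrus, a smaller contrast than that of the counts. A few cells carried much of the sum: 1 Pgr-positive cell in puberty held 105 of 561 counts, and the highest partner held 23 of 512. In alternatives chosen after seeing the data, the value without the highest cell of each sum was 1.13 (edgeR adjusted p = 1.11e-06), and with each cell's count limited to 5 it was 0.61 (edgeR adjusted p = 0.0283). It was no longer past the threshold when cells were matched on genes detected (0.94, edgeR adjusted p = 0.91), with 4 partners per cell (0.96, edgeR adjusted p = 0.261), and at 0.85 against all unmatched ML cells (edgeR adjusted p = 0.368).

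Further genes had a higher level in all 3 libraries. Tgm2, the transglutaminase 2 gene, was detected in 66.6% of Pgr-positive cells against 57.8% of partners in puberty, 57.9% against 48.7% in estrus and 40.6% against 40.1% in diestrus, with a log2 fold change of 0.44 (SE 0.10, edgeR adjusted p = 0.00584). Glul, encoding glutamine synthetase, was at 1671 CPM against 1145 in puberty, 928 against 760 in estrus and 475 against 465 in diestrus, with a log2 fold change of 0.34 (SE 0.07, edgeR adjusted p = 0.00218). The class difference of Glul was widest in puberty, where its level was also highest. Man1a, a mannosidase gene of N-glycan trimming, had 194 CPM against 138, 85.1 against 56.7 and 115 against 55.7 in puberty, estrus and diestrus, a log2 fold change of 0.61 (SE 0.13, edgeR adjusted p = 0.00218), although in estrus it was found in 25.0% of Pgr-positive cells and 26.3% of partners. Each of these 3 genes lost its call without the puberty library, with Glul at 0.16 (edgeR adjusted p = 0.948), Tgm2 at 0.48 (edgeR adjusted p = 0.769) and Man1a at 0.81 (edgeR adjusted p = 0.386). Tgm2 and Glul also lost it without estrus (edgeR adjusted p = 0.489 and 0.134), and Man1a without diestrus (edgeR adjusted p = 0.136).

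Ang4 and Ang5, encoding secreted ribonucleases of the angiogenin family, are close paralogs whose reads may be shared, and are best taken as 1 signal. Ang4 was detected in 17.4% against 13.5% of cells in puberty, 28.9% against 18.4% in estrus and 19.8% against 11.5% in diestrus, with a log2 fold change of 0.80 (SE 0.15, edgeR adjusted p = 0.00032), and Ang5 had a log2 fold change of 0.66 (SE 0.15, edgeR adjusted p = 0.004). Without puberty Ang4 passed at 1.30 (edgeR adjusted p = 0.0116) and Ang5 did not at 1.11 (edgeR adjusted p = 0.0512). Without estrus the values were 0.53 and 0.39 and did not pass (edgeR adjusted p = 0.489 and 0.807). Without diestrus they were 0.76 and 0.64 and did not pass either (edgeR adjusted p = 0.136 for each). With counts from a second deposited puberty table, Ang4 did not pass (0.74, edgeR adjusted p = 0.483) but Ang5 did (0.71, edgeR adjusted p = 0.0224). Lpar6, a lysophosphatidic acid receptor gene, was detected in 11.0% against 5.77% of cells, 28.9% against 19.7% and 15.6% against 9.90%, with a log2 fold change of 0.88 (SE 0.23, edgeR adjusted p = 0.041). It passed in 2 of 17 alternatives and in none that left out a library (edgeR adjusted p from 0.136 to 0.914). Hist1h2bc, one of many similar histone H2B genes, had a log2 fold change of 0.33 (SE 0.08, edgeR adjusted p = 0.00653), and of 0.24 once cycling cells were left out (edgeR adjusted p = 0.266).

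The remaining 2 genes called higher fell outside the rule for named genes and are given because their values were seen. Tmed3, a gene of protein transport between the endoplasmic reticulum and Golgi, had a log2 fold change of 0.31 (SE 0.07, edgeR adjusted p = 0.004). Tm4sf1, a membrane protein gene, was higher in puberty (305 CPM against 241) and diestrus (185 against 75.3) but not in estrus (72.4 against 83.4), with a log2 fold change of 0.47 (SE 0.12, edgeR adjusted p = 0.0288).

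**Figure D3:**
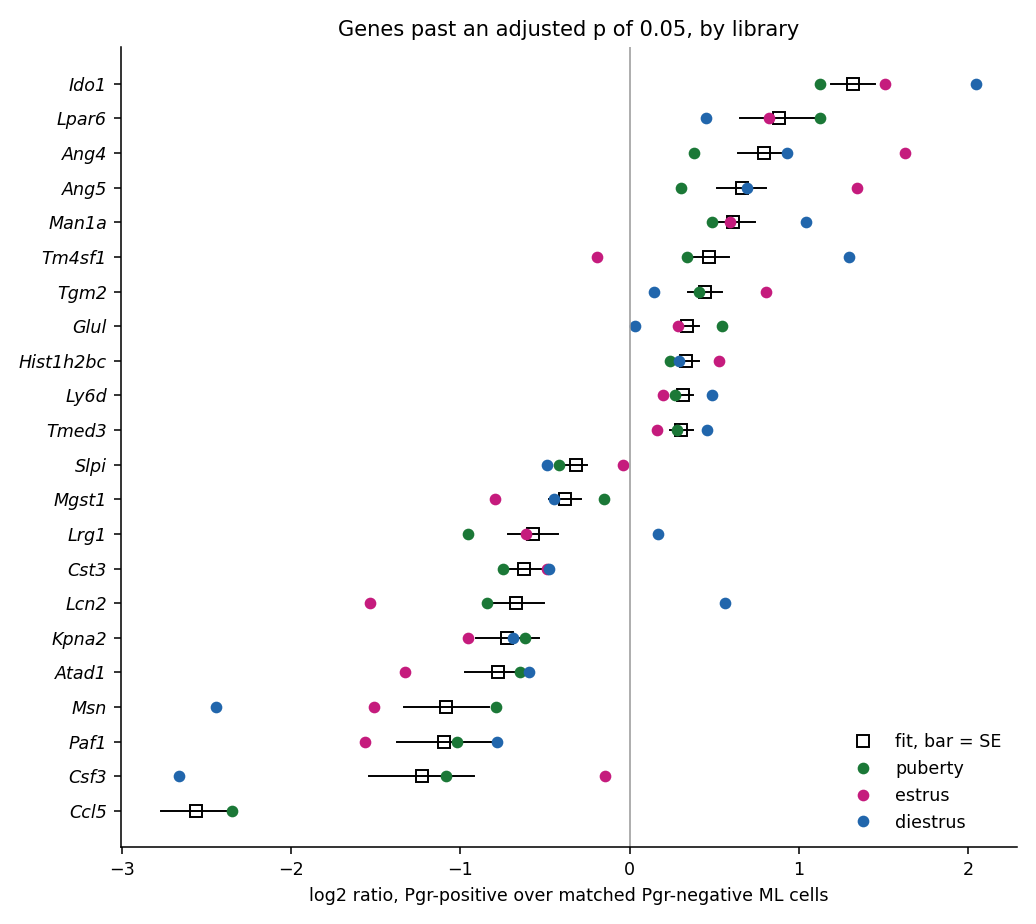
Log2 ratio of Pgr-positive over matched Pgr-negative ML cells (horizontal axis) for the 22 genes past an adjusted p of 0.05; dots are libraries, squares the edgeR fit and bars its SE, and a library with no count in a class has no dot. Ido1 lies above 1 in each library, while Tm4sf1, Lcn2 and Lrg1 have 1 library on the other side of 0.

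Msn, Atad1 and Paf1 were called lower and were also found in fewer cells of the Pgr-positive class in each library. Msn, encoding moesin, a linker of the membrane to actin, was detected in 9.55% against 16.2% of cells in puberty, 3.95% against 12.5% in estrus and 2.08% against 11.5% in diestrus, with a log2 fold change of -1.08 (SE 0.25, edgeR adjusted p = 0.0087). Atad1, a gene for a mitochondrial membrane ATPase, was detected in 12.1% against 18.8%, 13.2% against 30.3% and 17.7% against 24.5%, with a log2 fold change of -0.78 (SE 0.20, edgeR adjusted p = 0.0288). Paf1, a gene of an elongation complex of RNA polymerase II, was detected in 6.18% against 9.70%, 5.26% against 15.8% and 8.33% against 12.5%, with a log2 fold change of -1.09 (SE 0.28, edgeR adjusted p = 0.0358). No single cell held more than 6 counts of any of these 3 genes. None of them was past the threshold with 1 library left out or with matching on genes detected, where Paf1 was at -0.62 (edgeR adjusted p = 0.853), and Msn was at -2.09 without the puberty library (edgeR adjusted p = 0.259). Paf1 passed in 2 of 17 alternatives.

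Further genes were called lower. Cst3, encoding the protease inhibitor cystatin C, was at 189 CPM against 319 in puberty, 287 against 404 in estrus and 113 against 158 in diestrus, with a log2 fold change of -0.62 (SE 0.10, edgeR adjusted p = 6.68e-07). Cells with a Cst3 count were 36.2% against 39.0%, 28.9% against 36.8% and 35.4% against 42.2%, 1 puberty partner held 184 of 1298 counts, and 1 estrus partner held 125 of 378. Without the highest cell of each sum the value was -0.84 (edgeR adjusted p = 1.54e-06), whereas limiting each cell to 5 counts gave -0.17 (edgeR adjusted p = 0.968) and leaving out puberty gave -0.50 (edgeR adjusted p = 0.444). Cst3 was at 8319 to 18520 CPM in LP-rule cells, on a scale without TMM. Mgst1, a microsomal glutathione transferase gene that was also higher in LP-rule cells, had a log2 fold change of -0.38 (SE 0.10, edgeR adjusted p = 0.0288), and Slpi, a secreted protease inhibitor gene that was highest in basal-rule cells, one of -0.32 (SE 0.06, edgeR adjusted p = 0.0012), which was -0.09 when cells were matched on genes detected (edgeR adjusted p = 0.995). The part of LP or basal transcripts in these values was not tested. Kpna2, a nuclear import gene whose transcript is known to rise in dividing cells, was at -0.72 (SE 0.19, edgeR adjusted p = 0.0358), and at -0.16 (edgeR adjusted p = 0.981) once cycling cells were left out.

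Of the genes called lower, 3 fell outside the lists and the rule and are named because their values were seen. Ccl5, a chemokine gene, had a log2 fold change of -2.56 (SE 0.21, edgeR adjusted p = 2.43e-11), but it had no count in estrus, and in puberty its 1229 partner counts came from 1.83% of the partners, 1 of which held 439. Csf3, a gene for a granulocyte growth factor, was at -1.23 (SE 0.31, edgeR adjusted p = 0.0292) with 3 counts in all in the adult Pgr-positive cells. Lrg1, a secreted glycoprotein gene, was at -0.57 (SE 0.15, edgeR adjusted p = 0.041).

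Cell cycle genes were compared because progesterone is a mitogen for the gland. All 10 were tested and none passed, with 3 lower and none higher at an unadjusted p under 0.05 and a median log2 fold change of -0.20. The highest of these genes, Ube2c and Birc5, which act in mitosis, had log2 fold changes of -0.36 (SE 0.13, edgeR adjusted p = 0.444) and -0.32 (SE 0.14, edgeR adjusted p = 0.803). A cell was called cycling with counts for at least 3 of the 10 genes. This held for 12.1% of Pgr-positive cells and 14.5% of partners in puberty, 11.8% and 13.8% in estrus, and 9.38% and 9.38% in diestrus. The mean difference was -1.46 points ± 1.28 (SD, n = 3). The exact two-sided sign-flip permutation p was 0.5, the smallest possible here because the shares in diestrus were equal. The test therefore could not set the difference apart from the spread over libraries. Against all ML cells without a Pgr count, which were shallower in puberty and estrus, the difference turned to 1.19 points.

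Immediate early genes and nuclear RNAs were used as signs of cell handling. Of 10 immediate early and heat shock genes 9 were tested, none passed, 2 had an unadjusted p under 0.05, both higher, and the median was 0.03. Fos was at 0.02 (SE 0.06) and Junb at -0.01 (SE 0.06). Of 4 nuclear noncoding RNAs 3 were tested and none passed, with Malat1 at 0.12 (SE 0.06, edgeR adjusted p = 0.819) and Neat1 at -0.01 (SE 0.08), 1 of them at an unadjusted p under 0.05. Mitochondrial transcripts made a median of 1.10% against 1.07% of counts in puberty, 1.05% against 0.933% in estrus and 0.762% against 0.780% in diestrus.

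**Figure D4:**
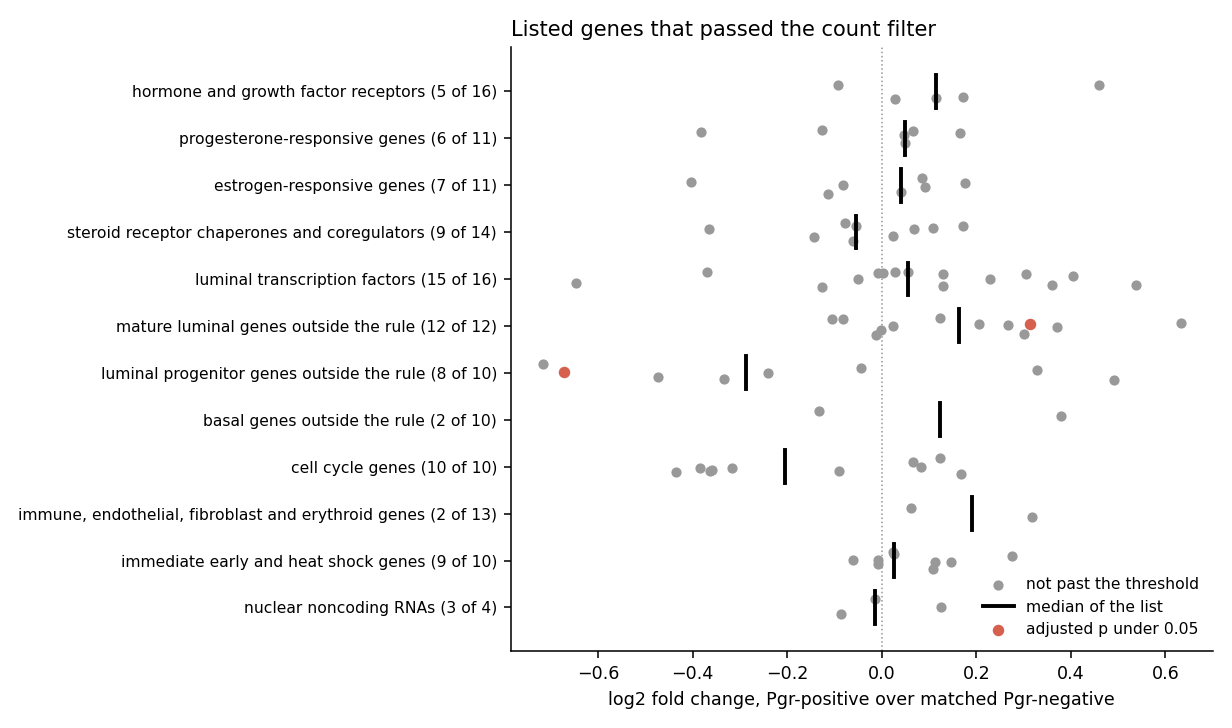
Log2 fold change of Pgr-positive over matched Pgr-negative ML cells (horizontal axis) for the listed genes that passed the count filter, by list, with the number tested of the number listed; black lines are list medians. Most lists center near 0, the LP and cell cycle lists have medians of -0.29 and -0.20, and the 2 red points past an adjusted p of 0.05 are Ly6d and Lcn2.

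Levels of several genes also differed between the libraries within the Pgr-positive cells, and with 1 library per stage these differences were not tested. Gata3 was detected in 31.7% of them in puberty and 77.6% in estrus, and Areg in 85.1% and 48.7%. Fos, an immediate early gene that responds to tissue handling, was at 1891 CPM in puberty, 5526 in estrus and 5761 in diestrus in the Pgr-positive cells, and at 1913, 6167 and 4855 in the partners. The genes that selected the cells are given as a description: Stc2 was found in 96.3% against 91.4%, 89.5% against 85.5% and 93.8% against 90.6% of Pgr-positive cells and partners in puberty, estrus and diestrus, and Upk3a in 34.8% against 43.3%, 30.3% against 38.8% and 21.9% against 25.0%.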

How the data were processed

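Whole mammary epithelium of puberty, estrus and diestrus had been captured on the 10x Chromium platform. The authors made the deposited counts, which are molecules per gene and cell barcode without normalization, with Cell Ranger 2.0 and the mm10 build, per the submitters' processing notes. A second puberty table, which shared 5387 barcodes with the first, was used only as an alternative. All deposited barcodes were kept and no doublet caller was run; the limits on LP and basal genes were the only guard.

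Cells were classed and matched as described in the report, and 6 sums (2 classes in 3 libraries) were compared with edgeR 4.0.16 (R 4.3.3; TMM, filterByExpr, quasi-likelihood F test, library as a block, Benjamini-Hochberg over all genes tested, threshold 0.05). Pgr and the 18 rule genes were left out of the test. The fit was also run on simulated sums drawn independently for each gene. These held no single cells with very many counts, so they cannot show how the fit handles such cells. Differences in shares were tested by exact sign-flip permutation over libraries, and intervals were computed with scipy 1.17.1. The libraries are pools of animals, so no p-value measures the spread between animals. With the library as a block, the edgeR p-values weigh the class difference against its residual spread over 3 pools of different stages. That spread was drawn onto a trend common to all genes.

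Named genes were those of each list past the threshold (at most 4), the 2 of each list with the highest level, 8 genes fixed by name, and, outside the lists, up to 8 genes in each direction past the threshold with the same direction in 3 of 3 libraries and at least 20 counts in each; other genes named were chosen after their values were seen. The members, lists and rules were chosen with earlier results of these data known. Gene coordinates were taken from GENCODE M21 (GRCm38) by Ensembl ID. CPM values of the 2 classes are TMM-scaled, those of LP-rule, basal-rule and all Pgr-negative ML cells are not. DESeq2 1.42.0 and other settings were run as alternatives. One gene of the lists is not reported here.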

Additional observations from a re-analysis of the deposited data

Results flagged for a closer look

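For 3 of the genes called different, 1 library lay on the other side of 0 from the remaining libraries, and with 1 library per stage the difference between stages was not tested. Lcn2 was lower in the Pgr-positive cells of puberty and estrus, with a log2 ratio of 0.56 in diestrus. Lrg1 was likewise lower in puberty and estrus, with a log2 ratio of 0.17 in diestrus. Tm4sf1 was higher in puberty and diestrus, with a log2 ratio of -0.19 in estrus.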

How the results depend on the processing

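Of 11 genes called higher and 11 called lower, the counts under other settings were 1 and 0 with DESeq2, 0 and 0 without the library block, 7 and 5 without matching, 1 and 0 with at least 2 Pgr counts per cell, 6 and 2 with the second puberty table, and 5 and 3 with 4 partners. Lower calls alone moved by over 1.5 times without a filter (20), with 1 partner (4), with matching on genes detected (6), without totals above the 95th percentile (4), without cycling cells (5), with counts per cell limited to 5 (2) and without the highest cell of each sum (3). Leaving out 1 library gave 3 to 6 higher and 2 to 9 lower calls, the fewest without puberty. The settings with 4 partners, limited counts and no highest cell were chosen after seeing the data. Over 298 values of the 17 named genes past the threshold under these settings, 129 stayed past it, 168 kept the direction only and 1 reversed (Slpi, 0.27 with at least 2 Pgr counts). The Pgr shares in puberty, estrus and diestrus became 7.72%, 4.62% and 6.95% after thinning and 5.71%, 1.34% and 1.75% with at least 2 Pgr counts, and 13.9% in the second puberty table. The cycling difference was 1.19 points without matching, -8.76 with at least 2 Pgr counts (10 and 11 adult cells; exact p = 0.25, the smallest possible), -0.47 with 4 partners and 0.50 by a count for Mki67; leaving out 1 library gave -2.19 to -0.99. The stages were not paired with each other, as each was 1 library. The classes were paired within each library, by the library block in the main comparison and in the tests of shares. The cause of these changes was not tested.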

Other observations

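Hba-a1, an alpha globin gene, was counted in ML cells with and without Pgr but hardly in other epithelium. In the ML cells without a Pgr count it stood at 63.3, 23.1 and 535 CPM (without TMM) in puberty, estrus and diestrus, against 0.267, 0.463 and 0.433 in basal-rule cells and 0.204, 3.70 and 1.98 in LP-rule cells. The beta globin gene Hbb-bs had no count in the Pgr-positive cells or their partners. Dcn stood at 338, 220 and 774 in the ML cells without a Pgr count, against 249, 294 and 241 in basal-rule cells and 4.49, 0.739 and 1.32 in LP-rule cells.

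Ribosomal protein genes, a group looked at after the data were seen, lay slightly low in the Pgr-positive cells. Of 94 tested, 85 were below 0 and 28 were lower in each of the 3 libraries. Over all 6537 genes tested these counts were 3340 and 787. None of the 94 passed the threshold by edgeR and 3 had an unadjusted p under 0.05, with a median log2 fold change of -0.07. These genes vary together and are not independent.

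In diestrus, Pgr was counted in 12.2% of ML cells with an Areg count (9.36 to 15.6) and in 22.7% of those without (16.8 to 29.4), although the cells with Areg were deeper, with a median of 5368 against 3382 counts. In puberty the shares were 17.9% and 15.5%, and in estrus 11.3% and 9.29%. The difference between stages was not tested.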
